A study of Mus musculus with 2 samples.

Results

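Ly6a (ENSMUSG00000075602) is the mouse gene for Sca-1, a small cell surface protein of the Ly6 family that a glycosylphosphatidylinositol (GPI) anchor holds in the outer membrane. It is 1 of the 31053 genes in the count matrix, and it was chosen by its counts in these same cells, gated on marker genes and divided by barcode suffix. Its levels are therefore given as a description, without a test. Among 4066 cells kept, 229 held at least 1 Ly6a molecule, 1248 molecules in all. Of these molecules, 1134 lay in 347 cells of 2 kinds that share no cell: cells rich in Tph1, the enzyme that starts serotonin synthesis, and cells with Anxa1, a gene of regenerating epithelium.

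The samples are mouse small intestinal organoids, epithelial structures grown in culture, on culture day 3. The labels list 1 control library and 1 melatonin-treated library, and each is a droplet-based 3′ RNA library of cells from 3 pooled organoid lines. No strain, age or melatonin dose is stated in the labels in words. The files of the 2 samples were identical in 3 of 3 cases, so both hold 1 matrix, whose barcodes end in suffix 1 (set 1) or suffix 2 (set 2). No source used here links a suffix to a treatment. Control and melatonin were therefore not compared, and which set was higher says nothing about melatonin. Each set is a single pool without replicates, so no test was run, and the 95% intervals given cover the error of counting alone.

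The matrix held 21806 barcodes. The cells kept had at least 500 genes, at least 1000 unique molecular identifiers (UMIs, each 1 captured RNA molecule) and at most 20% mitochondrial UMIs. There were 2300 such cells in set 1 and 1766 in set 2, with median depths of 29872 and 28759 UMIs. Of the barcode sequences, 29 occurred with both suffixes. None of them was kept under both, and the 7 kept cells with such a sequence held 1 Ly6a UMI.

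Enteroendocrine cells are the hormone-secreting cells of the gut lining. The transcription factor Neurog3 starts their differentiation, and the lineage then divides into enterochromaffin cells, which make serotonin, and cells that make peptide hormones such as Gcg, Cck, Gip and Ghrl. Sca-1 is best known as a marker of blood stem cells and as a protein induced by interferon. In the gut it also marks epithelium that has returned to a fetal-like state after injury, a state in which Anxa1, Clu and Areg are switched on. Revival stem cells are a Clu-expressing population of injured gut that is described in the same setting.

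Cells were gated on raw UMIs: Neurog3 at 2 or more, Tph1 at 10 or more, the sum of Gcg, Cck, Gip and Ghrl at 50 or more (the hormone gate), Apoa1 at 20 or more for enterocytes, Muc2 at 5 or more for goblet cells, Anxa1 at 2 or more, and Lgr5 at 5 or more for stem cells. The enteroendocrine gate is the union of the first 3. The names were checked against marker lists, in which Tph1 and Anxa1 are present by the choice of the gates. Besides Tph1, the enterochromaffin markers Ddc, Slc18a1, Lmx1a and Tac1 were detected in at least 10% of Tph1-gated cells of each set. The other 8 revival markers, with Anxa1, Anxa3, Clu, S100a6, S100a11, Il1rn and Areg among them, were all present in the Anxa1 gate, with summed levels of 10381 and 8881 CPM in sets 1 and 2, where CPM is the number of UMIs of a gene per 1000000 UMIs of all genes, summed over the cells of a group. In the Tph1 gate the same 8 summed to 109 and 85.2 CPM, and Anxa1 was at 0. In the Anxa1 gate 8 of 10 enteroendocrine markers in set 1 and 6 of 10 in set 2 were at 0, Neurod1, Pax4, Isl1, Scg2 and Fev among them in each set. Not 1 cell passed both the enteroendocrine and the Anxa1 gate. Goblet markers in the Anxa1 gate summed to 521 and 6629 CPM and Paneth markers to 73.1 and 2278 CPM in sets 1 and 2. Of 5 immune markers, Ptprc, Cd3e and Lyz2 were at 0 in the Tph1 and the Anxa1 gate, and the 5 summed to 9.05 and 3.85 CPM in the Tph1 gate and to 19.7 and 18.2 CPM in the Anxa1 gate. Of 3 endothelial markers, Cdh5 and Kdr were at 0 in both gates, and Pecam1 was at 41.6 and 27.8 CPM in the Tph1 gate (55 of 149 and 35 of 150 cells) and at 0 and 4.27 CPM in the Anxa1 gate.

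Ly6a was present in enteroendocrine-gated cells and in Anxa1-gated cells, and near 0 in the other gates. In the enteroendocrine gate, 440 Ly6a UMIs lay in 96 of 274 cells of set 1 and 143 UMIs in 64 of 292 cells of set 2. Set 1 thus had 94.6 CPM (86.0 to 104), against 29.1 CPM (24.6 to 34.3) in the other set. In the Anxa1 gate, 135 UMIs lay in 10 of 14 cells of set 1 and 440 UMIs in 14 of 34 cells of set 2, at 267 CPM (224 to 316) and 235 CPM (213 to 258). In the enterocyte gate only 1 and 4 UMIs were seen, at 0.576 and 1.06 CPM. In the stem cell gate, 11 UMIs in 580 cells of set 1 and 13 in 289 cells of set 2 gave 0.466 and 1.10 CPM. The goblet gate held 6 and 8 cells with 1 UMI each, too few to describe.

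Cells differ in depth, so the share of cells with a UMI was also computed for cells thinned to 2000 UMIs each. For enteroendocrine-gated cells that share was 13.7% (9.80% to 18.3%) and 5.55% (3.19% to 8.81%) in sets 1 and 2, against 35.0% and 21.9% without thinning. For the Anxa1 gate it was 38.4% (12.8% to 64.9%) and 17.3% (6.76% to 34.5%). Enterocyte-gated cells, which should lack the gene, gave 0.060% in set 1 and 0.079% in set 2. Their median depths of 34951 and 34931.5 UMIs were above those of the enteroendocrine-gated cells, 15300.5 and 15454.5 UMIs.

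Within the enteroendocrine lineage, Ly6a was highest in cells of the serotonin branch. In the Tph1 gate, 427 UMIs lay in 89 of 149 cells of set 1 (59.7%) and 132 UMIs in 61 of 150 cells of set 2 (40.7%), at 176 CPM (159 to 193) and 56.5 CPM (47.3 to 67.0). Thinned to 2000 UMIs the shares were 24.0% and 10.3%. Cells that passed the hormone gate alone held 0 UMIs among 57 cells of set 1, where a count of 0 allows up to 2.86 CPM, and 2 UMIs among 115 cells of set 2. Cells that passed the Neurog3 gate alone, without Tph1 or hormones at the gate's level, held 12 UMIs in 59 cells of set 1 (12.4 CPM, 6.39 to 21.6). In set 2 they held 0 UMIs in 20 cells, which allows up to 8.76 CPM.

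Among the classes of the lineage that share no cell, cells that carried both Neurog3 and Tph1 had the most Ly6a. The 72 such cells of set 1 reached 228 CPM (201 to 257) and the 56 of set 2 reached 73.5 CPM (55.6 to 95.2). Cells with Tph1 but no Neurog3 at the gate's level had 110 CPM (92.1 to 130) in 73 cells and 48.7 CPM (38.3 to 61.0) in 93 cells. The intervals of these 2 classes did not overlap in set 1 and overlapped in set 2. A further 12 and 8 cells passed the hormone gate together with Neurog3 or Tph1 and had 155 CPM (107 to 216) and 70.1 CPM (32.0 to 133). In set 1, 3 of those cells held 88.2% of their Ly6a UMIs, and in set 2 a single cell held all 9.

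**Figure D1:**
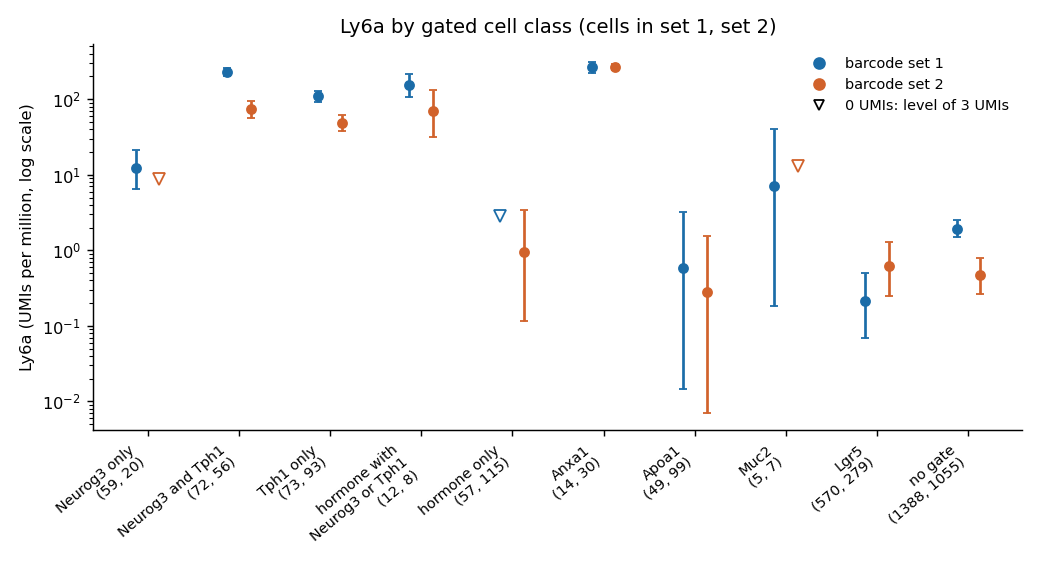
Ly6a level in CPM (log axis) in 10 classes of gated cells that share no cell, for set 1 (blue) and set 2 (orange); points are summed levels, bars are 95% Poisson intervals, and open triangles mark classes with 0 UMIs at the level of 3 UMIs. The 2 classes with Tph1 lie between 48.7 and 228 CPM and the Anxa1 class at 267 and 269 CPM, while hormone-only cells are at 0 and 0.944 CPM.

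Single cells showed how these sums arose. In the Tph1 gate of set 1, 60 of 149 cells had 0 Ly6a UMIs, 12 had 1, 44 had 2 to 4, 23 had 5 to 9 and 10 had 10 or more, with a maximum of 46. In set 2, 89 of 150 had 0, 30 had 1, 25 had 2 to 4, 6 had 5 to 9 and none reached 10, with a maximum of 8. The signal was spread over many cells in each set, and the 3 highest cells held 19.4% and 18.2% of the UMIs. The highest cell, with 46 Ly6a UMIs, held 57 Tph1, 12 Neurog3, 1711 Chgb and 360 Tac1 UMIs and 0 of Anxa1, Clu and Ly6d. Of the 40 enteroendocrine-gated cells with 5 or more Ly6a UMIs, 33 were of set 1.

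The Anxa1 gate was far more uneven. In set 2 the 3 highest cells held 151, 111 and 88 Ly6a UMIs, which is 79.5% of all UMIs there, and 20 of 34 cells had 0. In set 1 the 3 highest cells held 46, 26 and 18 UMIs, or 66.7%, and 4 of 14 cells had 0. Without the 3 cells of each set with the most Ly6a, the Anxa1 gate was at 110 CPM and 54.4 CPM in sets 1 and 2. The close values of the sets in this gate thus rest on a few cells.

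**Figure D2:**
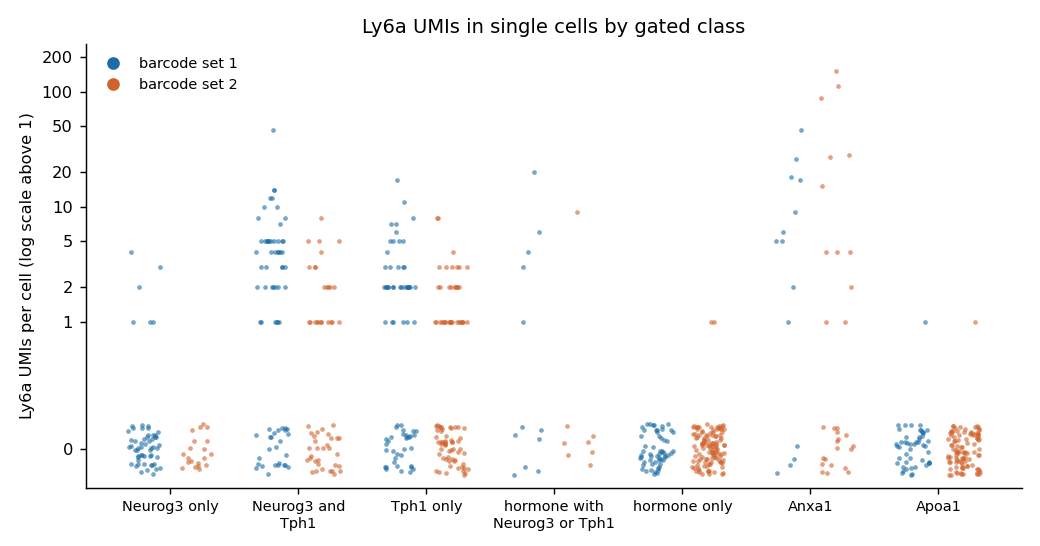
Ly6a UMIs in each cell (vertical axis, linear below 1 and logarithmic above) by gated class, for set 1 (blue) and set 2 (orange); each point is a cell, jittered sideways and, at 0, also up and down. Cells with Tph1 reach 46 UMIs in set 1 but only 8 in the other set, and the highest values, 88 to 151, are 3 Anxa1-gated cells of set 2.

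The enteroendocrine-gated cells were also split by single genes of the lineage. Chgb encodes a granule protein of enteroendocrine cells. It was itself high in the Tph1 gate, at 53600 and 60350 CPM, so its split partly repeats that gate. All 583 Ly6a UMIs of the enteroendocrine gate lay in the 421 cells with 100 or more Chgb UMIs. The other 73 cells of set 1 and 72 cells of set 2 held 0 Ly6a UMIs, which allows up to 2.22 and 2.67 CPM. Tac1 encodes the precursor of substance P, a peptide of enterochromaffin cells. Without Tac1 UMIs, cells held 1 Ly6a UMI in each set, in 67 and 89 cells. In cells with 100 or more Tac1 UMIs, set 1 had 189 CPM (169 to 211) and set 2 had 64.5 CPM (52.7 to 78.3).

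Lmx1a, the transcription factor of the enterochromaffin fate, ordered the cells in the same way in set 1 but not throughout in set 2. In set 1 the Ly6a level was 12.8 CPM (8.54 to 18.6) without Lmx1a UMIs, 115 CPM (99.2 to 133) with 1 to 4 and 271 CPM (237 to 309) with 5 to 19. In set 2 it was 0.782 CPM, 63.2 CPM (50.3 to 78.4) and 55.9 CPM (42.5 to 72.3). The upper 2 bins of set 2 overlap. Slc18a1, the transporter that loads serotonin into granules, gave 7.69, 83.7 and 180 CPM in cells of set 1 with 0, 1 to 4 and 5 to 19 UMIs, and 1.05, 20.8 and 51.3 CPM in set 2. Tph1 itself, which made the gate, gave 3.11 and 4.85 CPM in cells with 0 UMIs.

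Several genes of the peptide branch ran the other way, though not at every count. Isl1 encodes a transcription factor of hormone-making enteroendocrine cells. Cells without Isl1 UMIs had 125 CPM (113 to 137) and 45.5 CPM (38.1 to 54.0), and those with 1 or more had 1.76 and 5.48 CPM. In the 37 and 78 cells with 5 or more UMIs of Gcg, the glucagon gene, and in the 20 and 32 cells with any UMI of the hormone gene Pyy, Ly6a was at 0. A count of 0 allows up to 4.25 and 2.01 CPM for Gcg and up to 7.55 and 4.90 CPM for Pyy. At low counts Gcg in set 1 did not show this: cells with 1 to 4 Gcg UMIs had 128 CPM (102 to 158) in 31 cells, against 108 CPM (97.2 to 120) at 0. For set 2 these values were 29.5 and 46.2 CPM. In set 1 Ly6a rose with low counts of the hormone gene Sct. It was at 68.9 CPM (53.6 to 87.1) without Sct UMIs and 169 CPM (144 to 197) with 5 to 19. In set 2 these values were 47.5 and 39.9 CPM. With 20 or more Sct UMIs the sets had 1.45 and 0.799 CPM. At 0 and 5 to 19 Cck UMIs, set 1 had 104 and 127 CPM and set 2 had 41.9 and 90.3 CPM. The intervals overlapped. From 20 to 99, set 1 had 159 CPM and set 2 was below its level at 0. With 100 or more, the sets had 0 and 1.05 CPM. The 7 cells of set 1 with 1 or more UMIs of the hormone gene Nts had 149 CPM (88.0 to 235), against 93.2 CPM without, and the 14 such cells of set 2 had 26.2 CPM against 29.3 CPM. A single cell of set 2 with 100 or more Ghrl UMIs was an exception, with 9 Ly6a, 44 Neurog3 and 136 Tac1 UMIs and no Tph1.

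**Figure D3:**
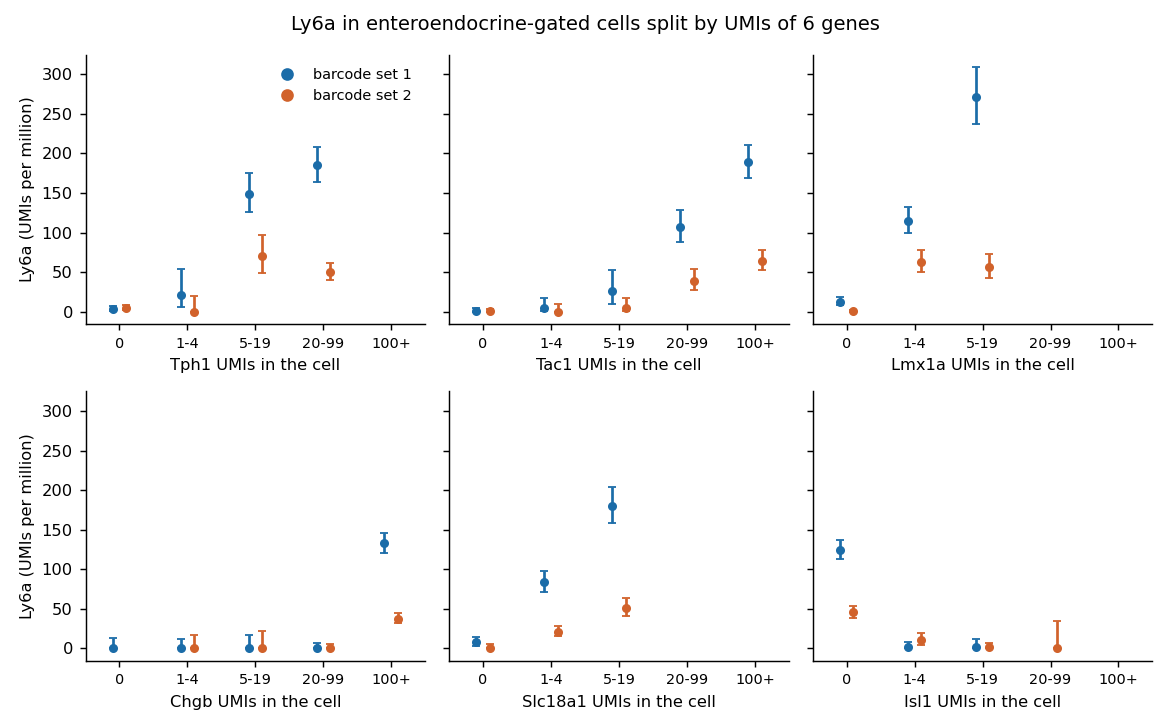
Ly6a level in CPM in enteroendocrine-gated cells, split by the number of UMIs of Tph1, Tac1, Lmx1a, Chgb, Slc18a1 and Isl1 in the cell, for set 1 (blue) and set 2 (orange); bars are 95% Poisson intervals, and bins with fewer than 5 cells are left out. Within a gene's own panel the level is highest at 100 or more Tac1 or Chgb UMIs and at 0 Isl1 UMIs, and the highest bin of all is 5 to 19 Lmx1a UMIs in set 1, at 271 CPM.

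Outside the enteroendocrine and Anxa1 gates, 45 of 3452 cells held 90 Ly6a UMIs. Of these cells, 22 had 100 or more Chgb UMIs, and 21 of the 22 had 1 to 9 Tph1 UMIs, just below the gate of 10. All cells with 100 or more Chgb and 1 to 9 Tph1 UMIs, inside or outside the other gates, had 98.4 CPM (75.2 to 126) in 50 cells of set 1 and 24.2 CPM (9.74 to 49.9) in 17 cells of set 2. Those with 0 Tph1 UMIs had 9.16 and 8.31 CPM. Over all kept cells, 206 of the 229 with a Ly6a UMI had 100 or more Chgb or 2 or more Anxa1 UMIs, and these held 1220 of the 1248 UMIs. The remaining 23 cells held 28.

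The level of Ly6a differed between the sets inside the Tph1 gate. It was 3.11-fold higher in set 1 than in set 2, a log2 difference of -1.62 for set 2 over set 1, and the intervals did not overlap. With a higher gate of 50 Tph1 UMIs the levels were 399 and 45.6 CPM. In set 1 that gate included the cell with 46 Ly6a UMIs and another with 14. Barcodes of the Tph1 gate that failed the cell filter ran the other way, at 6.79 and 157 CPM in 8 barcodes of each set. The enteroendocrine, Neurog3 and hormone gates were also higher in set 1, by 3.25-fold, 2.26-fold and 5.47-fold. Cells in neither the enteroendocrine nor the Anxa1 gate were higher in set 1 as well, by 2.43-fold (1.20 and 0.496 CPM), without overlap of the intervals. The 3 highest of these cells held 14, 10 and 6 UMIs in set 1 and 5, 3 and 2 in set 2. The cells just below the Tph1 gate, described above, are part of that group. The first 3 gates share cells, and the Ly6a UMIs of the hormone gate lay in 5 and 3 cells. For Anxa1-gated cells the intervals overlapped. They also overlapped where set 2 was higher: over all kept cells (10.4 and 11.8 CPM) and in the enterocyte and stem cell gates. Without the 3 cells of each set with the most Ly6a, the Tph1 gate still gave 145 and 47.2 CPM. Tph1 gate cells of set 1 had more Ly6a at each mitochondrial share: 383 against 63.2 CPM up to 5% (22 cells of set 1), 135 against 59.0 CPM from 5% to 10%, and 181 against 44.7 CPM from 10% to 20%. Of the UMIs in the first of these groups of set 1, 3 cells held 63.9%. Without the 3 cells with the most Ly6a in each group and set, the values were 171 against 38.5, 115 against 45.6 and 99.6 against 22.2 CPM. At or below the median depth of the gate the values were 156 and 74.0 CPM, and above it 187 and 44.0 CPM.

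Few genes of the Tph1 gate differed that much between the sets. Of 6562 genes that reached 20 CPM and were seen in 10% of the cells of at least 1 set, 66 (1.01%) were lower by 2-fold or more in set 2 and 17 (0.259%) were higher. Ly6a was the 13th from the lowest ratio, but it was chosen by these same values, so its rank is a description. None of the 33 enteroendocrine genes tested was past 2-fold in either direction, a count near the shares over all genes. Tph1 was at 1618 CPM in set 1 and 2112 CPM in set 2, Chgb at 53600 and 60350 CPM, Tac1 at 8300 and 8491 CPM, and Neurog3 at 437 CPM in each. Chga, a granule protein gene, was at 6943 and 11607 CPM, and Reg4 at 9760 and 17153 CPM, both higher in set 2 but under 2-fold.

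Among the genes lower in set 2, chosen after their values were seen, were Ptger3, a receptor for prostaglandin E, at 34.2 and 4.71 CPM, and Klk1, a secreted protease, at 66.2 and 15.0 CPM. The Paneth gene Lyz1 was at 218 and 48.8 CPM, and Alb, the albumin gene, at 63.0 and 9.85 CPM. Of the 3 Paneth markers tested, Lyz1 and Mmp7 (116 and 51.0 CPM) were lower in set 2 by 2-fold or more, and Defa24 was at 414 and 600 CPM, with 54.1% of its set 2 UMIs in 3 cells. Summed, these 3 were at 747 and 699 CPM, and over the 6 goblet markers 1073 and 699 CPM. The part of free RNA or of other cell types in the Ly6a difference was not tested.

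Cells with and without a Ly6a UMI were next set against each other. In the enteroendocrine gate 160 cells had a UMI and 406 had none, with median depths of 15282 and 15421.5 UMIs. Of 6507 genes tested, 194 (2.98%) were higher by 2-fold or more in the cells with Ly6a and 101 (1.55%) were lower. Of 41 enteroendocrine genes tested, 9 were higher and 13 lower, with a median log2 ratio of 0.39 against 0.14 over all genes. Tph1, Gcg, Cck, Gip and Ghrl also made the gates by which Ly6a was chosen, so these counts partly restate that choice and are a description. The 9 were Tph1, Lmx1a, Slc18a1, Tac1, Chgb, Reg4, Ucn3, Trpa1 and Rab3c. Tph1 was at 1718 against 644 CPM, Tac1 at 8363 against 3054 CPM, and Trpa1, an irritant-sensing channel of enterochromaffin cells, at 162 against 65.1 CPM (log2 ratio 1.30).

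Among the 13 lower genes were the hormones Gcg, Pyy, Gip, Ghrl, Cck and Sct, the transcription factors Isl1, Pax6 and Pdx1, and Scg2, Scgn and Cpe. Gcg was at 10.9 against 7945 CPM, a log2 ratio of -9.38, and Gip at 99.7 against 14407 CPM, a log2 ratio of -7.16. Pyy had 0 UMIs in the cells with Ly6a and 212 CPM in those without. Not passing 2-fold were Chga (log2 ratio 0.98), Fev (0.61), Neurog3 (0.56) and Pax4 (0.33).

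The genes with the highest ratio were Ambp (58.1 against 6.80 CPM, log2 ratio 2.92), Mmp7 (103 against 23.0 CPM, 2.12), Cbln1, Gm32122, Cdh4, Alb, Plet1, Egflam, Rbp3 and Col11a2, the last at 33.2 against 8.97 CPM (1.78). The lowest were Gcg, Pyy, Gip, Ghrl, Krt20, Lect2, Agr2, Cck, Gast and Serpina1b. Of these, Krt20, a keratin of mature gut epithelium, had 1.51 against 122 CPM, and Gast, the gastrin gene, 2.64 against 116 CPM. In the mesenchymal list only Vim could be tested, at 1547 against 470 CPM, and Col1a1, Col3a1 and Pdgfra were at 0 in the Tph1 gate. In the endothelial list only Pecam1 could be tested, at 37.7 against 13.8 CPM, a log2 ratio of 1.39. The part of such cells in the Ly6a values was not tested.

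The comparison was repeated inside the Tph1 gate, where few genes of any kind passed 2-fold over both sets. There 150 cells had a Ly6a UMI and 149 had none, with median depths of 15162.5 and 14236 UMIs. Of 6496 genes, 14 (0.216%) were higher by 2-fold or more and 5 (0.077%) were lower. Within set 1 alone 42 were higher and 47 lower, and within set 2 alone 46 and 51, from fewer cells. Of 33 enteroendocrine genes tested 0 were past 2-fold, a count near those shares, and Tph1 (1838 against 1883 CPM), Chgb (56475 against 57370 CPM), Tac1 (8686 against 8082 CPM) and Lmx1a (246 against 241 CPM) were nearly equal. At the gate's median depth 1 UMI is worth 68.4 CPM, so a cell without a UMI need not lack the transcript.

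The genes with the highest ratio in this gate, named after their values were seen, were Ambp (62.6 against 9.12 CPM, log2 ratio 2.65), Fmo1, Alb, Tnfaip3, Dmbt1, Gm32122, Pdzk1ip1, Klk1, Ttc28 and Ptp4a3. Of the UMIs of the 150 cells with Ly6a, 3 cells held 73.1% for Alb, 56.7% for Dmbt1 and 47.4% for Ambp, which was seen in 29 cells with Ly6a and 18 without. The lowest was Nupr1, a stress-response gene, at 114 against 320 CPM (log2 ratio -1.49). Set 1 gave 89 of the 150 cells with a UMI and 60 of the 149 without, so a gene that differs between the sets can also differ here. Within the sets taken alone, 4 of the 10 highest and 0 of the 10 lowest were past 2-fold in both, and since all were picked for their ratio over both sets this is no independent check. Alb had log2 ratios of 1.20 and 0.81 in sets 1 and 2, Gm32122 of 0.98 and 1.10, and Nupr1 of -0.98 and -2.43.

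**Figure D4:**
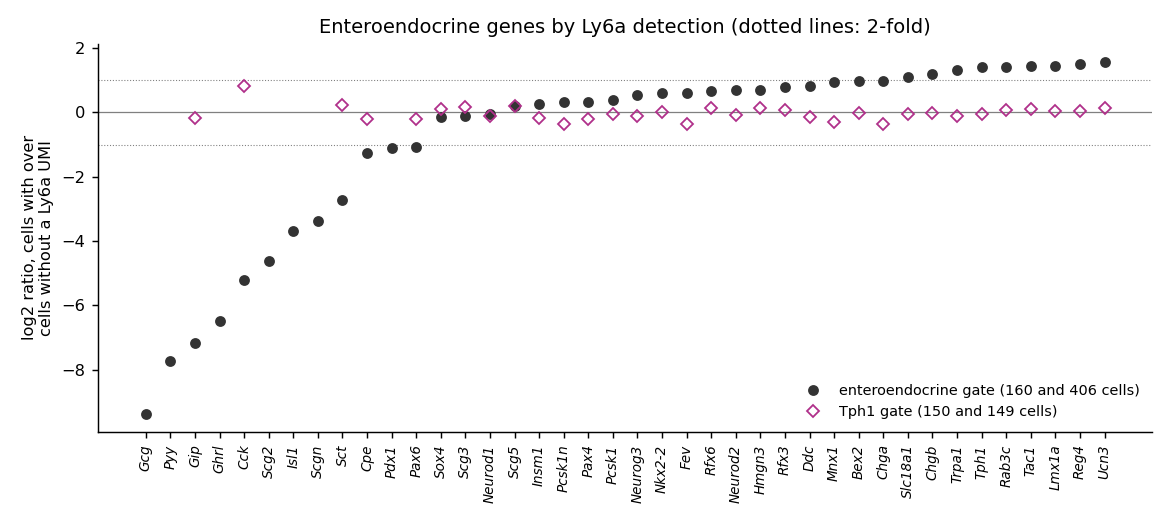
Log2 ratio of CPM plus 1 between cells with and without a Ly6a UMI for enteroendocrine genes tested, in the enteroendocrine gate (filled circles) and in the Tph1 gate (open diamonds); dotted lines mark 2-fold. In the wider gate genes lie past the lines on both sides, down to -9.38 for Gcg, and in the Tph1 gate all genes drawn lie between them.

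Interferon is a known inducer of Ly6a, and most genes of the interferon response were below the level needed for a test. Of 32 listed, 5 could be tested in the enteroendocrine gate, and 1, the antiviral gene Rsad2, was higher by 2-fold or more in cells with Ly6a (37.7 against 16.2 CPM, log2 ratio 1.17), where 2.98% of all genes were. In the Tph1 gate 0 of 5 were, against 0.216% of all genes, and Rsad2 had a log2 ratio of 0.73. H2-K1 and B2m, which serve antigen presentation and were abundant, had log2 ratios of 0.15 and 0.06 there. Of the 7 receptor and signalling genes tested in the Tph1 gate, 1 was higher, Jak2, a kinase of cytokine receptors, at 33.3 against 15.6 CPM, and this count is too small to set against the 0.216%. Jak1 was at 170 CPM in each group. Among Anxa1-gated cells 1 of 6 interferon response genes was higher, the chemokine Cxcl10, seen in 5 cells with and 8 cells without Ly6a, where 3.06% of all genes were higher.

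Genes that build GPI anchors, which Sca-1 needs to reach the surface, were counted in the same way. Of 14 tested in the enteroendocrine gate and 15 in the Tph1 gate, 0 were past 2-fold, and of 13 in the Anxa1 gate 1, Pigq, was lower, where 4.97% of all genes were. Counts this small are near those shares. The list of regenerative and fetal genes gave 2 higher (S100a6 and Krt19) and 1 lower (Anxa2) of 10 tested in the enteroendocrine gate, and 0 of 10 in the Tph1 gate. Over all genes of the enteroendocrine gate 2.98% were higher and 1.55% lower. In the Tph1 gate these shares were 0.216% and 0.077%, so 0 of 10 is near them. S100a6 was at 38.9 against 18.7 CPM in the enteroendocrine gate. 

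In the Anxa1 gate, 24 cells had a Ly6a UMI and 24 had none, with median depths of 48752 and 45423.5 UMIs. Of 5815 genes, 178 (3.06%) were higher by 2-fold or more in the cells with Ly6a and 289 (4.97%) were lower. Of 21 regenerative and fetal genes tested, 8 were higher and 0 lower: Anxa1, Il1rn, F3, Areg, Anxa8, Clu, Krt7 and Msln. Over the 21 tested the median log2 ratio was 0.80, against -0.03 over all genes. Anxa1, which made the gate, was at 574 against 157 CPM. Il1rn, the antagonist of the interleukin receptor, was at 365 against 131 CPM, the growth factor gene Areg at 2249 against 893 CPM, and Clu at 222 against 71.3 CPM. Anxa3, also a member, was at 409 against 392 CPM.

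In the cells with Ly6a, the 3 highest cells of each gene held 72.7% of the Il1rn UMIs, 72.7% of F3, 78.5% of Anxa8, 59.4% of Areg, 55.4% of Anxa1 and 53.7% of Clu. Of the 24 cells with Ly6a 10 were of set 1, and of the 24 without 4. Without the 3 cells with the most Ly6a, the same 8 regenerative genes were past 2-fold. Genes of other lineages differed in this gate too. The hormone gene Nts, which no gate uses, had 1180 UMIs in a single cell with Ly6a. The 3 Paneth and 3 goblet markers tested were all higher in cells with Ly6a, but 3 cells held 99.9% of the Defa24 UMIs, 98.3% of the Fcgbp UMIs and 96.6% of the Tff3 UMIs in those cells. Of 6 enterocyte markers 4 were lower, Apoa1, Apoa4 and Fabp1 among them, with Fabp1 at 38.7 against 947 CPM. Fabp1 was seen in 19 of the 24 cells with Ly6a and 15 of the 24 without, and over the Anxa1 gate of set 2, 3 cells held 94.5% of its UMIs. The stem cell genes Lgr5 and Smoc2 and the proliferation gene Mki67 were lower as well, Mki67 at 56.0 against 161 CPM. The part of these lineages in the Ly6a values was not tested.

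Members of the Ly6 family differed in where they were found. Of 33 members listed, 32 were in the gene list, 25 had a UMI and 11 had at least 100. Ly6d, a family member of stratified and injured epithelia, had 1036 UMIs in 27 cells, and 98.1% of them lay in 19 Anxa1-gated cells. The enteroendocrine gate held 1 Ly6d UMI. All 12 cells with 10 or more Ly6d UMIs also had Ly6a, and 9 of the 10 Anxa1-gated cells with 10 or more Ly6a UMIs had Ly6d. The 3 cells with the most Ly6a had 232, 11 and 35 Ly6d UMIs, 149, 90 and 38 Anxa1 UMIs and 64, 25 and 4 Clu UMIs.

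The cell with the most Ly6d, 285 UMIs, held 28 Ly6a UMIs, so the counts of the 2 genes did not run in step. A cell of set 1 with 26 Ly6a UMIs had 0 Ly6d, 2 Anxa1 and 0 Clu UMIs. In the Anxa1 gate 4 of 6 family members tested were higher by 2-fold or more in cells with Ly6a, where 3.06% of all genes were: Ly6d (827 against 9.45 CPM, log2 ratio 6.31), Ly6e (1.51), Psca (1.10) and Plaur (1.06). Ly6d, Ly6e and Psca, but not Plaur, were past 2-fold also without the 3 cells with the most Ly6a.

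**Figure D5:**
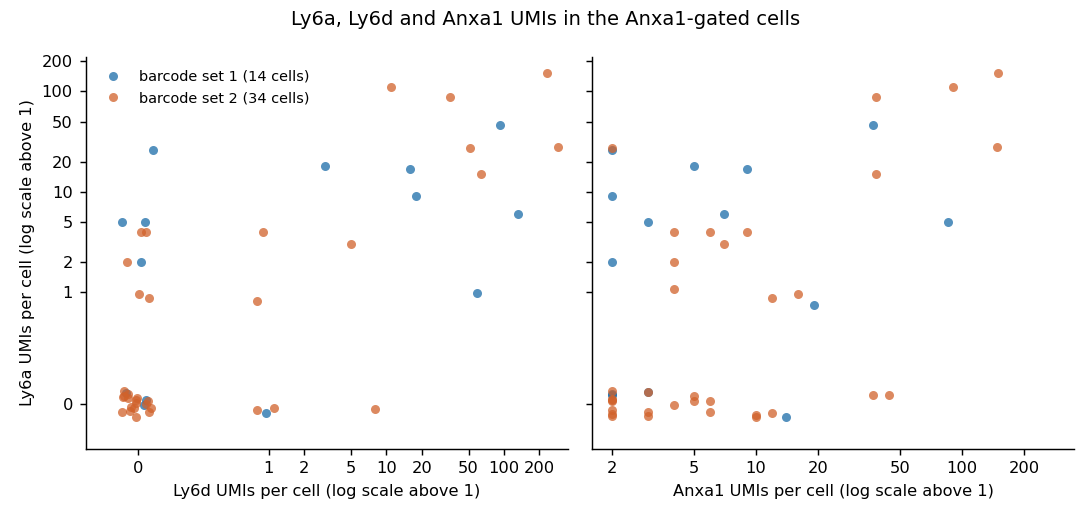
Ly6a UMIs against Ly6d UMIs (left) and Anxa1 UMIs (right) in each Anxa1-gated cell, on axes that are linear below 1 and logarithmic above, for the 14 cells of set 1 (blue) and the 34 cells of set 2 (orange); low values are jittered. The cells with 10 or more Ly6d UMIs all have Ly6a, and cells with 37 and 44 Anxa1 UMIs have 0 Ly6a UMIs.

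Other members had their own patterns. Psca, a GPI-anchored protein, was at 273 and 68.9 CPM in the Anxa1 gate of sets 1 and 2 and at 1 UMI in the whole Tph1 gate. Plaur, the urokinase receptor, was at 49.4 and 120 CPM in the Anxa1 gate and at 2 UMIs in the Tph1 gate. Lypd6, a modulator of Wnt signalling, was at 42.4 and 31.7 CPM in the Tph1 gate, at 15.0 and 13.4 CPM in the hormone gate and at 0 in the Anxa1 gate. Lypd6 was also higher in enteroendocrine-gated cells with Ly6a, at 39.3 against 18.8 CPM, and at 40.6 against 33.4 CPM in the Tph1 gate. Lypd8, which keeps bacteria from the colon epithelium, was present in all of these gates, at 184 and 98.1 CPM in the Tph1 gate and 132 and 129 CPM in the Anxa1 gate. Ly6e, a broadly expressed member, had 12220 UMIs in 2846 cells and was at 185 and 179 CPM in the Tph1 gate.

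Ly6a lies in a cluster of related genes, where reads may be shared between copies. In the GRCm38.p6 gene order of RefSeq its neighbours include Ly6i, Ly6c1, Ly6c2, Ly6g and Ly6e. Ly6m, Ly6a2 and Ly6g2 are also neighbours but have no counts under those names, so reads shared with them cannot be seen. In kept cells Ly6i, Ly6c2 and Ly6g had 0 UMIs and Ly6c1 had 2, both in the Anxa1 gate. How reads that fit several copies were counted is not given in the sources used here.

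The genes whose levels were most like those of Ly6a over 20 points (10 classes in each set) were Cab39 (Pearson r = 0.90), Rbm42 (0.90), Arhgdia (0.89), Cwh43 (0.88), Capn5 (0.87), Lmna (0.85), Snf8 (0.85) and Arl4c (0.84). The search covered 11922 genes, and the points share 1 matrix and classes of unequal depth, so r is a description. Cwh43 was the member whose level in the Tph1 gate also differed between the sets, at 102 and 36.8 CPM. It had 7.88 and 1.78 CPM in the hormone gate and 15.8 and 13.9 CPM in the Anxa1 gate. Cab39 ran only from 51.0 CPM outside the gates to 88.5 CPM in the Tph1 gate of set 1. With lower gates 3 of the 8 genes were again among the closest 8, with higher gates 1, and by Spearman correlation 2, so the list depends on how the cells are gated.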

How the data were processed

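Per the labels' protocols, droplet-based 3′ libraries were made from pooled organoid lines. The deposited values are raw UMI counts per gene and barcode, not normalized by the authors. The submitters' processing notes name Cell Ranger 3.1.0, STAR 2.7.3a and bcl2fastq 2.20.0. The genome build and the treatment of multimapping reads are not given in the sources used here, so no coordinates are printed. The reference gene names matched 30934 of 31053 identifiers.

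Barcodes were filtered and gated on raw counts as stated in the results. UMIs were summed over cells and divided by the total of the group (CPM), and have exact Poisson intervals. Clopper-Pearson intervals are given for shares, and the expected share at 2000 UMIs per cell came from the hypergeometric distribution, leaving out shallower cells (3 and 2 in the enteroendocrine gate). A count of 0 was set to a limit of 3 counts of the group. Ratios are log2 of CPM plus a pseudocount of 1, which understates low genes. A gene was tested for a 2-fold ratio where 1 group had at least 20 CPM and a UMI in at least 10% of its cells. Named genes were those of fixed lists, the gates, the 8 most like Ly6a among genes with 100 UMIs and the 10 highest and lowest ratios in the enteroendocrine gate, and other names are marked as chosen later. No doublet caller was run. Alternatives kept cells of 1 lineage only or left out the top 5% of depths. The members, lists and gates were chosen with earlier results of these data known. The ratio and thinning steps were tested on simulated data before use. For the ratio step the counts were drawn from pooled means without variation between cells. That test therefore does not cover genes whose UMIs lie in a few cells. Python 3.11.15, numpy 2.4.6, scipy 1.17.1 and pandas 2.3.3 were used. Some genes of the lists are not reported here by name.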

Additional observations from a re-analysis of the deposited data

Results flagged for a closer look

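Barcodes that failed the cell filter held 112 Ly6a UMIs in 67 of 17740 barcodes, a count above the limit that 0 allows. Of these data, only the Tph1-gated barcodes are used above. The data have no control to set beside them. Set 1 had 1.04 CPM (0.763 to 1.37) and set 2 had 1.83 CPM (1.41 to 2.34), with 59.4% of the set 2 UMIs in 3 barcodes. Among these barcodes, 16 passed the Tph1 gate and held 19 of the UMIs, at 72.6 CPM (43.7 to 113). Of these 19 UMIs, 18 lay in 4 of the 8 barcodes of set 2 (157 CPM) and 1 in the 8 of set 1 (6.79 CPM), the opposite order to the kept cells of that gate. A further 9 barcodes passed the Anxa1 gate and held 31 UMIs, 22 of them in 1 barcode, at 210 CPM (143 to 298). The 17645 barcodes in neither the enteroendocrine nor the Anxa1 gate held 61 UMIs, at 0.758 CPM (0.580 to 0.974). There set 1 was higher, at 0.894 against 0.579 CPM. By the mitochondrial share of the barcode, the level was 86.3 CPM up to 5%, 9.78 CPM from 5% to 10%, 6.48 CPM from 10% to 20%, 2.31 CPM from 20% to 50% and 0.754 CPM above 50%, over all barcodes. Of the 314 UMIs in the first of these groups, kept cells of the enteroendocrine gate held 146 and of the Anxa1 gate 161, and 3 cells held 51.3%. Within the Tph1 gate of set 1 the kept cells had 383, 135 and 181 CPM in the first 3 groups, and 171, 115 and 99.6 CPM without the 3 cells with the most Ly6a in each.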

How the results depend on the processing

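No paired analysis was possible because both samples hold 1 matrix and no result comes from a test. Over the main results, 89 alternative values stayed within their counting interval or within 1.5 times, 41 did not. The order of the sets in the Anxa1 gate, whose intervals overlap, turned in cells of 1 lineage, at 267 and 269 CPM. The Ly6a level of the Anxa1 gate in set 1 was 336 CPM with a mitochondrial limit of 10%, 158 with lower gates, 334 with higher gates, 484 without the top 5% of depths, 110 without the 3 highest cells and 419 as a mean over cells. In set 2 it was 213 CPM with the 10% limit, 144 with lower gates, 317 with higher gates, 269 in cells of 1 lineage, 289 without the top 5% and 54.4 without the 3 highest cells. The enteroendocrine gate gave 84.3 CPM with lower gates, 82.5 and 20.2 CPM with higher gates in sets 1 and 2, and 77.8 and 24.3 CPM without the 3 highest cells. The Tph1 gate gave 399 and 45.6 CPM with higher gates and 145 and 47.2 CPM without the 3 highest cells, so set 1 was higher in each case. The share of cells thinned to 5000 UMIs was 24.7% and 11.6% in the enteroendocrine gate and 41.4% and 21.0% in the Tph1 gate. Unthinned shares were 35.0% and 21.9% in the enteroendocrine, 59.7% and 40.7% in the Tph1 and 71.4% and 41.2% in the Anxa1 gate, and deeper cells give more by construction. With higher gates the Tph1 share of set 1 was 36.1%. With a pseudocount of 10 CPM, 90 genes were higher with Ly6a in the enteroendocrine gate, and in the Tph1 gate 2 were higher and 1 lower. In the Tph1 gate alone in set 1, 42 were higher and 47 lower, and in set 2, 46 and 51, where fewer cells enter each sum. Cells with at least 2 Ly6a UMIs gave 8 lower genes there, and set 2 alone gave 155 lower genes in the enteroendocrine gate. The cause of the other changes was not tested. The Tph1 gate, the removal of the 3 highest cells and the splits by mitochondrial share and depth were chosen after seeing the data. Depth limits single cells: 1 UMI at the median depth is worth 68.4 CPM in the Tph1, 54.5 CPM in the hormone and 22.0 CPM in the Anxa1 gate.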
